A study of Mus musculus with 20 samples.

Results

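Interferon response genes, the transcripts that cells raise when interferon binds its receptors, were followed in RNA from mouse nerve tumors. The set holds 37 named genes, and all 37 were found among the 24062 genes of the deposited count table and passed the expression filter that 16589 genes passed. They were grouped by role into IFIT and related effectors, MX and OAS enzymes, transcription factors, feedback inhibitors, RNA and DNA sensors, membrane and other restriction factors, and GBP and IRG GTPases. The 20 libraries were 12 of neurofibroma, 4 of paraspinal tumor (2 in each of subgroups 1 and 2) and 4 of GEM-PNST, the peripheral nerve sheath tumor of genetically engineered mice. Neurofibromas carried the genotype Nf1fl/fl; DhhCre, and paraspinal tumors and GEM-PNST carried Ink4a/Arf+/-; Nf1fl/fl; DhhCre, all on the C57BL/6J strain and without any drug. DhhCre removes Nf1 in the Schwann cell lineage, so the other cells of these tumors keep it. The labels give no ages, and they call the paraspinal subgroups sub-clusters, so the subgroups may rest on these same expression values. Whether each library came from a separate animal is not stated. In the deposited sample codes 1 number stands for both neurofibroma library 8 and library 9. The codes of subgroup 1 library 1 and GEM-PNST library 2 differ only in letters, as do those of the 2 subgroup 2 libraries. The libraries within each of these pairs may therefore share a source. What the p-values measure is thus the variation among these libraries.

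Total counts ranged from 9900759 to 24314222 per library. Levels are given as CPM (counts relative to the library total, scaled by TMM factors over all 20 libraries), and a floor of 3 counts lay between 0.109 and 0.302 CPM. Sequencing runs were inferred from the prefixes of the submitters' alignment names and numbered by order of appearance, and the sample labels do not state them. By these prefixes, neurofibroma libraries 1 to 6 formed the first run and neurofibroma libraries 7 to 12 the second run. The 8 libraries of the other stages formed the third run. Where neurofibroma is compared, run, genotype and stage therefore cannot be told apart, while paraspinal and GEM-PNST libraries share their run and genotype. The strand setting of the counting is not given in the sources used here, so the counts of Irf1, Irf7, Dhx58, Ifi35, Usp18, Oasl1 and Gbp2, whose exons overlap a gene on the other strand, may include its reads, and those of Irf9, Igtp, Gbp7 and Parp14 overlap a gene on the same strand.

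Interferons signal through cell surface receptors to the kinases Jak1, Jak2 and Tyk2. Type I interferon signaling acts through a complex with Stat2 and Irf9 at the interferon-stimulated response element (ISRE), and type II interferon signaling acts at the gamma-activated site (GAS). The induced proteins degrade or sequester viral RNA, block virus entry and release, attack vacuoles that hold microbes, and switch the pathway off again. In tumors the same genes are expressed by cancer cells and by the immune and stromal cells around them.

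The ISRE core was searched as GAAANNGAAA and the GAS core as TTCNNNGAA, on both strands, in RefSeq windows from 250 bases before to 50 bases after each gene's start (build GRCm38.p6). Windows were found for 29 members. At least 1 ISRE core lay in the windows of 18 of them (62.1%), beside 646 of 16781 genes of the table with a window (3.85%). At least 1 GAS core lay in 10 (34.5%), beside 1545 of all genes (9.21%). A match describes the letters of the window and does not show that a factor binds there. The 140 bases before the start are printed for 8 members, with ISRE and GAS cores in capitals. Of these, 4 were called higher and 4 lower in at least 1 stage comparison. The stretches lie at chr16:10785537-10785676 (Socs1, minus strand), chr8:71537473-71537612 (Bst2, minus strand), chr11:53769874-53770013 (Irf1, plus strand), chr7:78913284-78913423 (Isg20, plus strand), chr3:142530196-142530335 (Gbp7, plus strand), chr5:120777662-120777801 (Oas3, minus strand), chr19:34640731-34640870 (Ifit1, plus strand) and chr12:26456453-26456592 (Rsad2, minus strand).
Socs1: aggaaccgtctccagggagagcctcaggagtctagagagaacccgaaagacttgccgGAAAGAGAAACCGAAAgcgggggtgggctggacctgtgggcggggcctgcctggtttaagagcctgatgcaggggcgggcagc
Bst2: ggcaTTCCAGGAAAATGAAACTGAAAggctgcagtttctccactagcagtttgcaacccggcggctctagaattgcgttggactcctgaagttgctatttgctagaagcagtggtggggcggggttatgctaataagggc
Irf1: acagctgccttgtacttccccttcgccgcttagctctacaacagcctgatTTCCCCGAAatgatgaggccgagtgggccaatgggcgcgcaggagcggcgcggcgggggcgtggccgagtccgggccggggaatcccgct
Isg20: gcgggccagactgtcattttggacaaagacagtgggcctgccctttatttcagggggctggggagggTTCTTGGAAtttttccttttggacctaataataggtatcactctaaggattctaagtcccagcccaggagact
Gbp7: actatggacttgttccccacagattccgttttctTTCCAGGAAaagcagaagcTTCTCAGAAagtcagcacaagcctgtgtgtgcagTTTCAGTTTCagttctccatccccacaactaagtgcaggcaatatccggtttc
Oas3: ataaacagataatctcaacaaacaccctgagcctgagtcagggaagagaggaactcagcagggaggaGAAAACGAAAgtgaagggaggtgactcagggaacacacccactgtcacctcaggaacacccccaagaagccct
Ifit1: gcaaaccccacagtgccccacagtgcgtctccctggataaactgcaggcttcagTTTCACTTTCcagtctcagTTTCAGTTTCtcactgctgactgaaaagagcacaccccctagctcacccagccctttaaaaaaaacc
Rsad2: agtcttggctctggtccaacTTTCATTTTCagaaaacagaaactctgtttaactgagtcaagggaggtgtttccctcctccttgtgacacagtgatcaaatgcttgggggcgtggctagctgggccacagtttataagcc
In Socs1, 2 overlapping ISRE cores begin 83 and 77 bases before the start, and Bst2 holds 2 overlapping ISRE cores, the first of which also overlaps a GAS core. The Gbp7 stretch holds 1 ISRE and 2 GAS cores, the Irf1 and Isg20 stretches 1 GAS core each and no ISRE core. The 8 were printed because they hold a core, so they do not compare the directions. Of the members called higher in a stage comparison, 8 had a window, of which 3 held an ISRE core and 4 a GAS core. Of those called lower, 8 had a window, of which 5 held an ISRE core and 2 a GAS core, and Ifit2, Ifi44 and Trim25 held no ISRE core.

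GEM-PNST libraries 1 and 3 stood apart from the others in markers of other cell types. In GEM-PNST library 1 the fibroblast markers summed to 126 CPM, beside 4400 to 11800 CPM in paraspinal libraries, and the myeloid factor Irf8 had 2400 CPM. Dendritic cell markers summed to 1740 CPM there, beside 111 to 234 CPM in paraspinal libraries, with Clec9a at 335 CPM. This list was mixed: Tcf4 was at its lowest of the 20 libraries (44.3 CPM), and Ccr7 and Cd209a were at 0.135 and 0.27 CPM. Library 3 held 40500 CPM of salivary gland transcripts, beside at most 83.7 CPM in any neurofibroma library. Sox10, which defines Schwann cells, was at 0.609, 0.486, 437 and 5.65 CPM across GEM-PNST libraries 1 to 4, and the Schwann cell markers summed to 128 to 1280 CPM there, beside 3870 to 21600 CPM in neurofibroma and 8510 to 17900 CPM in paraspinal libraries. Macrophage markers summed to 143 to 2070 CPM in neurofibroma, 629 to 2480 CPM in paraspinal and 2090 to 7400 CPM in GEM-PNST libraries. Sensory neuron markers summed to 45.9 to 484 CPM in GEM-PNST and 3400 to 5070 CPM in paraspinal libraries, and to 2120 to 10800 CPM in neurofibroma except for library 4, at 21.8 CPM. The 484 CPM was that of GEM-PNST library 1, where Avil alone held 480 CPM. Bulk RNA cannot tell fewer cells of a type from less RNA per cell, and the part of these other cells in the results below was not tested. Calls in GEM-PNST that were lost or gained without libraries 1 and 3 are given beside the gene, a choice made after seeing the data, since these libraries also held the lowest and highest values of most members.

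The GEM-PNST libraries differed from each other more in these genes than the libraries of the other stages did. The SD of log2 CPM over the 4 GEM-PNST libraries had a median of 1.86 over the 37 members, beside 0.7 over all genes tested. It was 0.55 (0.47 over all genes) among the 4 paraspinal and 0.83 (0.45 over all genes) among the 12 neurofibroma libraries. The mean log2 CPM of the members was 2.4, 3.89, 5.68 and 4.84 in GEM-PNST libraries 1 to 4, 4.95 and 4.03 in subgroup 1, 4.07 and 4.57 in subgroup 2, and 2.82 to 5.33 in neurofibroma. GEM-PNST libraries 1 and 3 thus held the lowest and the highest mean of all 20 libraries.

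**Figure D1:**
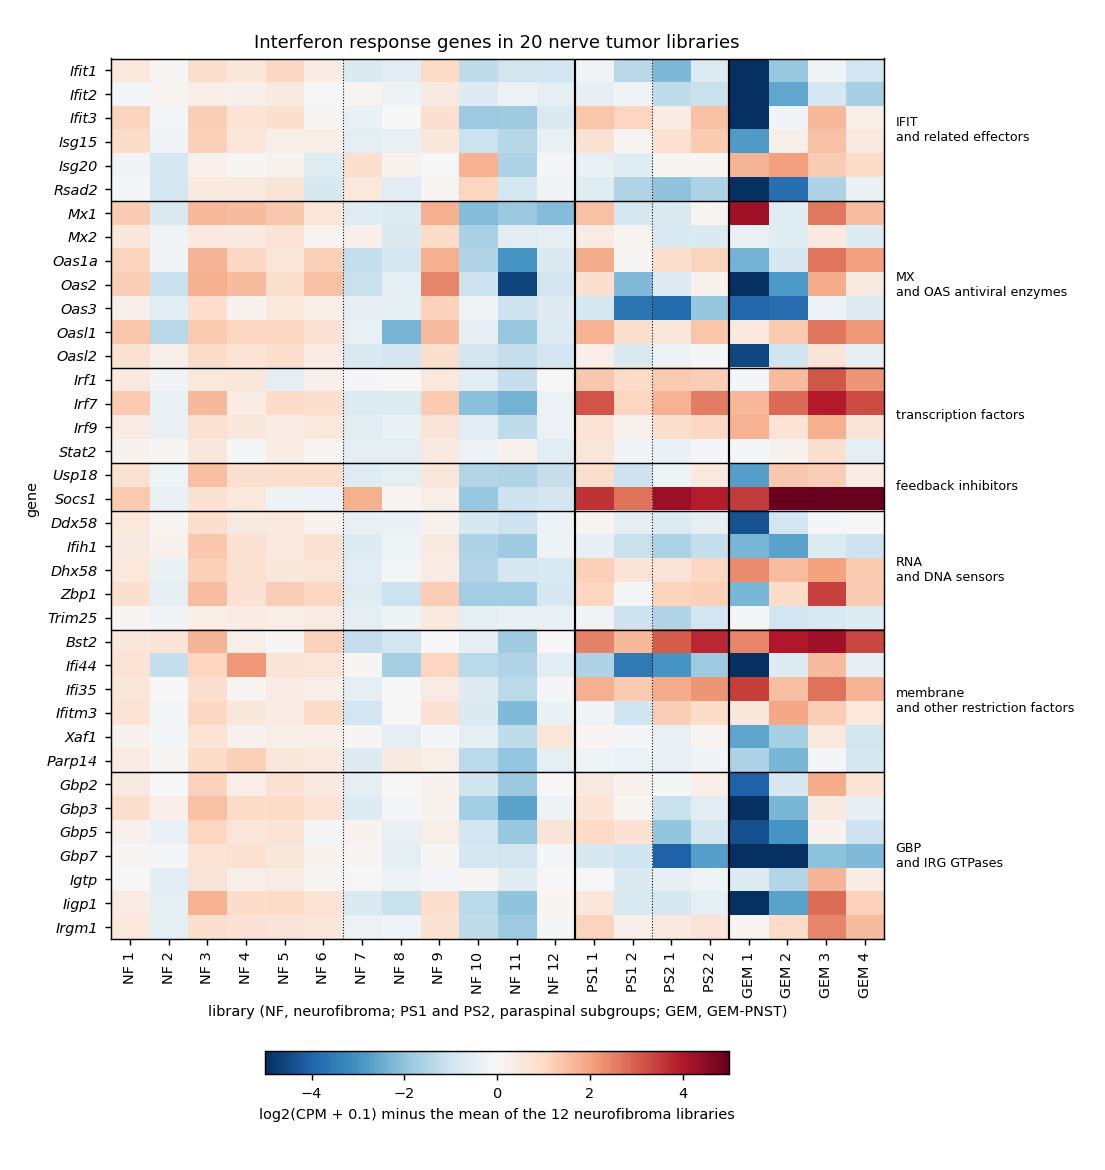
Level of each of the 37 interferon response genes (rows, grouped by role) in each of the 20 libraries (columns), as log2(CPM + 0.1) minus the mean of the 12 neurofibroma libraries; colors are limited to 5 in either direction, and dotted lines divide the neurofibroma runs and the paraspinal subgroups. GEM-PNST library 1 is lowest of the 4 GEM-PNST libraries in 25 members and library 3 highest in 27, while Socs1, Bst2 and Ifi35 are above the neurofibroma mean in every paraspinal and GEM-PNST library.

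The share of members that differed between stages was below the share of all genes in each stage comparison. In paraspinal against neurofibroma libraries 13 of 37 members (35.1%) passed an adjusted p of 0.05 in edgeR's quasi-likelihood test, 5 higher and 8 lower, beside 59.4% of all genes tested. Between GEM-PNST and paraspinal libraries 1 member (2.7%) passed, beside 10.2% of genes. Between GEM-PNST and neurofibroma libraries 17 (45.9%) passed, 10 higher and 7 lower, beside 73.1% of genes. The median log2 fold change over the members was -0.12, 0.41 and 0.27 in these comparisons, beside -0.02, 0 and -0.14 over all genes. With RLE scaling the last of these shifted to -0.28 over all genes and 0.11 over the members, and no called member changed direction. Both comparisons with neurofibroma share its 12 libraries and are not independent of each other. The 4 paraspinal libraries lay wholly outside the neurofibroma range in 3 of 37 members, beside 36.5% of genes. For GEM-PNST against paraspinal the count was 2, beside 27.6% of genes, and for GEM-PNST against neurofibroma it was 7, beside 46.5% of genes.

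**Figure D2:**
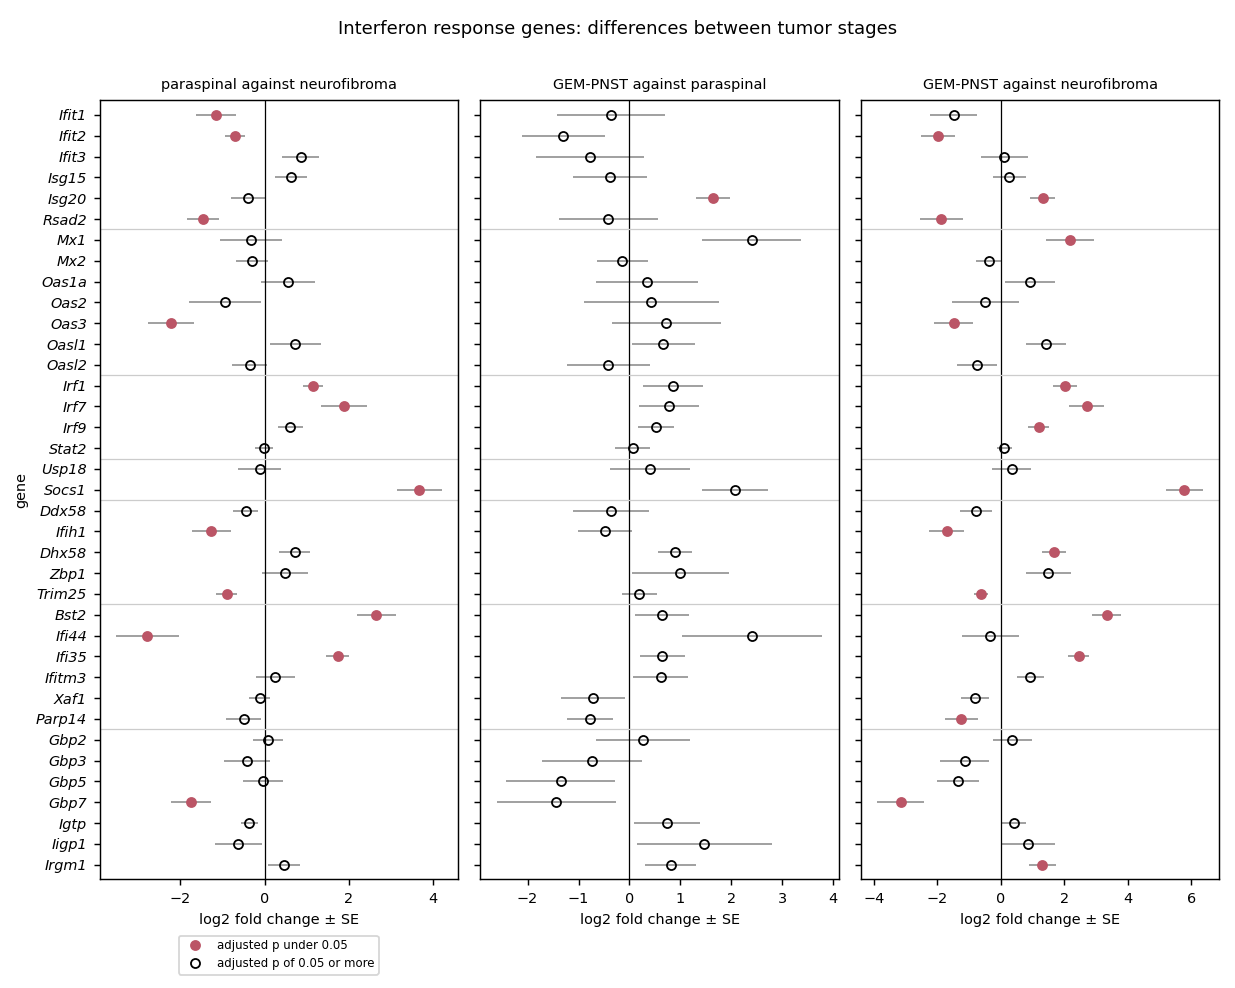
Log2 fold change (points) with its standard error (bars) of each of the 37 genes in the 3 stage comparisons, filled where the adjusted p is under 0.05. The first and last panels hold 13 and 17 filled points on both sides of 0, and the middle panel holds 1, Isg20.

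In the sentences that follow, paraspinal values are given for subgroup 1 libraries 1 and 2 and then subgroup 2 libraries 1 and 2, GEM-PNST values for libraries 1 to 4, and neurofibroma values as the lowest, the median and the highest of the 12. Fold changes are on the log2 scale with standard errors (SE), and adjusted p-values are from edgeR with Benjamini-Hochberg adjustment over all genes tested.

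Among the feedback inhibitors, Socs1 rose and Usp18 did not pass the test in any comparison. Socs1, which blocks the receptor-bound Janus kinases (chromosome 16, 10782240 to 10785536 on GRCm38), had 0, 0.26 and 1.18 CPM in neurofibroma, 4.5, 2.34, 7.23 and 5.57 CPM in paraspinal, and 4.19, 30.5, 26.1 and 25 CPM in GEM-PNST libraries. Every paraspinal and GEM-PNST library lay above every neurofibroma library, and GEM-PNST library 1 lay within the paraspinal range. The gene rose by 3.67 (SE 0.54, adjusted p = 1.56e-05) from neurofibroma to paraspinal and by 5.78 (SE 0.59, adjusted p = 2.35e-07) from neurofibroma to GEM-PNST. The difference of 2.07 between GEM-PNST and paraspinal libraries missed the threshold (SE 0.65, adjusted p = 0.0729), and it was 2.42 (adjusted p = 0.0149) without GEM-PNST library 1. Without GEM-PNST libraries 1 and 3 it was 2.44 (adjusted p = 0.0203). Neurofibroma libraries held 0 to 15 Socs1 counts each, too few to order the 12 libraries. Usp18, which removes Isg15 from proteins and binds the type I receptor, had 3.78, 13 and 31.2 CPM in neurofibroma, 20.1, 5.35, 9.51 and 15.6 CPM in paraspinal and 1.56, 28.4, 25.9 and 14.2 CPM in GEM-PNST libraries. Its stages overlapped, and GEM-PNST library 1 held its lowest value of the 20. Of 7 other negative regulators of interferon signaling, 3 rose and 3 fell from neurofibroma to paraspinal, where 59.4% of all genes were called. From neurofibroma to GEM-PNST 4 rose and 1 fell, beside 73.1% of genes. Socs3, a relative of Socs1 that acts mainly on cytokine receptors with the gp130 chain, rose by 3.02 (adjusted p = 2.65e-05) and 4.32 (adjusted p = 2.16e-05).

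**Figure D3:**
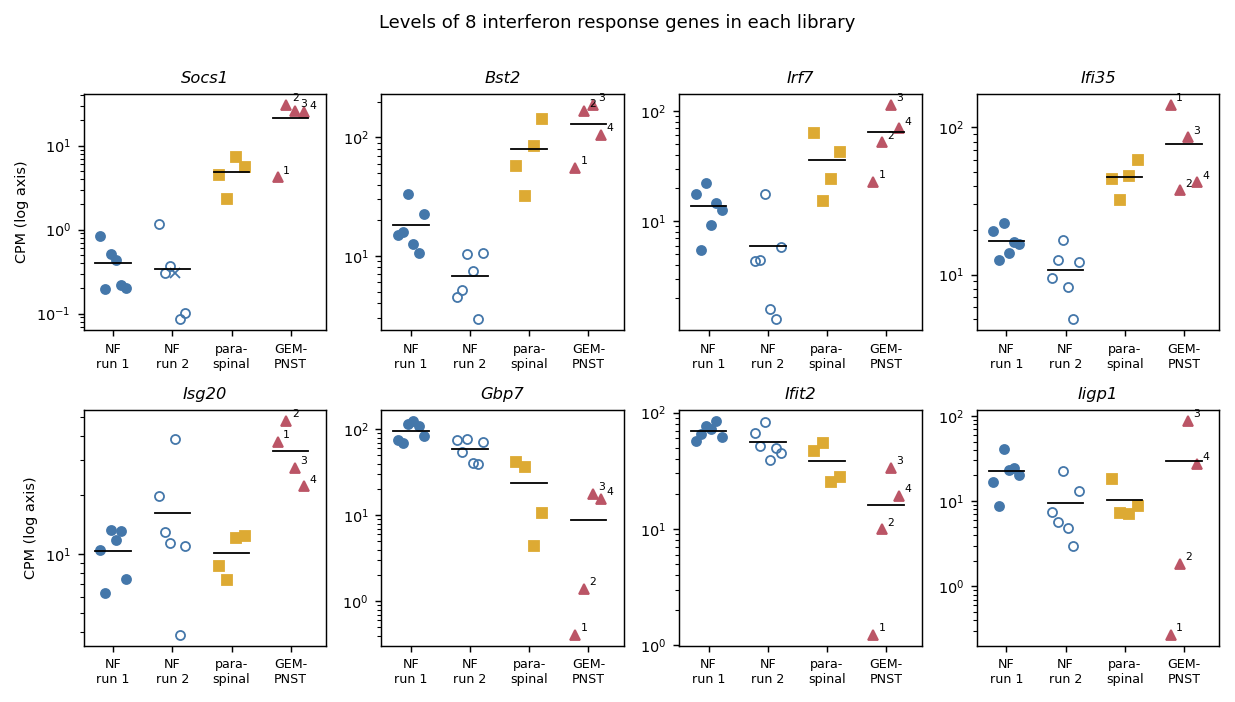
CPM of 8 genes in every library on log axes, with neurofibroma libraries divided by inferred run (circles, filled for the first and open for the second). Paraspinal libraries are squares and GEM-PNST libraries numbered triangles. Lines are means, and the cross marks a neurofibroma library at 0 counts, drawn at 3 counts. Socs1, Bst2, Irf7 and Ifi35 lie above the neurofibroma libraries in all 4 GEM-PNST libraries, and Gbp7 and Ifit2 below them.

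The transcription factors Irf1 and Irf7 rose, Irf9 rose in GEM-PNST against neurofibroma alone, and Stat2 passed no test. Irf1, which acts early in both interferon responses (chromosome 11, 53770014 to 53778374), had 10.3, 23.5 and 34.3 CPM in neurofibroma, 59.2, 44.7, 56.9 and 54.5 CPM in paraspinal and 21.3, 69.1, 200 and 108 CPM in GEM-PNST libraries. All 4 paraspinal libraries lay above all neurofibroma libraries, and GEM-PNST library 1 fell back into the neurofibroma range while the other 3 lay above it. The gene rose by 1.14 (SE 0.24, adjusted p = 0.000522) in paraspinal and by 2.02 (SE 0.37, adjusted p = 0.00012) in GEM-PNST against neurofibroma libraries. Irf7, the factor that amplifies type I interferon production (chromosome 7, 141262706 to 141266481), had 1.29, 7.53 and 22.3 CPM in neurofibroma, 63.1, 15.1, 23.9 and 42.6 CPM in paraspinal and 22.7, 51.7, 113 and 69.7 CPM in GEM-PNST libraries. Only the second library of subgroup 1 lay within the neurofibroma range, and GEM-PNST library 1 lay just above its top. The gene rose by 1.88 (SE 0.55, adjusted p = 0.00757) and by 2.7 (SE 0.56, adjusted p = 0.000425) against neurofibroma. Irf9, the DNA-binding subunit of the type I complex, had 12.5, 32.1 and 52 CPM in neurofibroma, 48.1, 35.4, 55.3 and 61.4 CPM in paraspinal and 102, 48.3, 105 and 47.6 CPM in GEM-PNST libraries. It was high in GEM-PNST libraries 1 and 3 and within the neurofibroma range in libraries 2 and 4. Its rise of 1.19 in GEM-PNST against neurofibroma (SE 0.32, adjusted p = 0.00344) was 0.54 (adjusted p = 0.244) without libraries 1 and 3. Stat2, the partner of Irf9, had 44.1, 67.6 and 95.1 CPM in neurofibroma, 98.3, 56.6, 52 and 60 CPM in paraspinal and 61, 73.5, 112 and 46.9 CPM in GEM-PNST libraries. The fold changes of Stat2 were -0.01, 0.06 and 0.11 in the 3 stage comparisons, each smaller than its SE of 0.22 to 0.35.

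Of 6 membrane and other restriction factors, Bst2 and Ifi35 rose against neurofibroma in both later stages, and Ifi44 fell in paraspinal libraries. Bst2, or tetherin, which holds budding virus particles at the cell surface (chromosome 8, 71534255 to 71537456), had 2.92, 10.5 and 33.6 CPM in neurofibroma, 57.2, 32.2, 85.3 and 142 CPM in paraspinal and 55.5, 167, 188 and 105 CPM in GEM-PNST libraries. The second library of subgroup 1 lay just under the highest neurofibroma library, and all other paraspinal and GEM-PNST libraries lay above it. The rises were 2.65 (SE 0.46, adjusted p = 9.69e-05) in paraspinal and 3.33 (SE 0.46, adjusted p = 6.76e-06) in GEM-PNST against neurofibroma libraries. Ifi35, a cytoplasmic regulator of innate signaling (chromosome 11, 101448407 to 101458698), had 4.98, 13.3 and 22.4 CPM in neurofibroma, 44.4, 32, 46.9 and 60.5 CPM in paraspinal and 142, 37.3, 85.6 and 42.5 CPM in GEM-PNST libraries. No neurofibroma library reached any library of the other stages, and GEM-PNST library 1, lowest for most members, was the highest here. Ifi35 rose by 1.73 (SE 0.27, adjusted p = 3.01e-05) and by 2.45 (SE 0.33, adjusted p = 5.06e-06) against neurofibroma. Ifi44, an interferon-induced protein of the cytoplasm (chromosome 3, 151730922 to 151749960), had 3.76, 15.3 and 53.9 CPM in neurofibroma, 4, 0.928, 1.46 and 3.28 CPM in paraspinal and 0, 7.66, 36.2 and 9.04 CPM in GEM-PNST libraries. It fell by 2.78 (SE 0.75, adjusted p = 0.00406) in paraspinal libraries, of which the first of subgroup 1 lay within the neurofibroma range. The paraspinal call of Ifi44 was lost with subgroup 1 alone. In GEM-PNST the gene ran from 0 counts in library 1 to 36.2 CPM in library 3 and did not pass against either stage. Ifitm3, which blocks fusion of viruses in endosomes, had 48, 248 and 452 CPM in neurofibroma, 193, 111, 520 and 412 CPM in paraspinal and 330, 837, 516 and 317 CPM in GEM-PNST libraries. Per kilobase of exon Ifitm3 had the highest mean of the 37 members in each stage (381, 456 and 737 CPM per kilobase). Xaf1, a partner of the apoptosis inhibitor XIAP, did not pass in a stage comparison with all libraries. Its log2 fold change in GEM-PNST against neurofibroma was -0.8 (adjusted p = 0.108), and it fell by 1.68 (adjusted p = 0.00133) without library 3 and by 1.33 (adjusted p = 0.00898) without libraries 1 and 3. RLE scaling (adjusted p = 0.0486) and DESeq2 (adjusted p = 0.0246) also called it lower. The ADP-ribosyltransferase Parp14 fell by 1.24 (adjusted p = 0.0396) in GEM-PNST against neurofibroma. The Parp14 call was lost without neurofibroma library 4 (adjusted p = 0.0554) and without GEM-PNST libraries 1, 2 or 4 in turn (adjusted p = 0.103, 0.121 and 0.0698).

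Of the 6 IFIT and related effectors, Ifit1, Ifit2 and Rsad2 fell in paraspinal libraries, and Isg20 was the only one of the 37 members to pass between GEM-PNST and paraspinal libraries. Isg20, an RNA exonuclease (chromosome 7, 78913424 to 78920396), had 3.86, 11.6 and 38.4 CPM in neurofibroma, 8.67, 7.34, 12.1 and 12.3 CPM in paraspinal and 37.1, 47.6, 27.5 and 22.1 CPM in GEM-PNST libraries. All 4 GEM-PNST libraries lay above all 4 paraspinal libraries, and the highest neurofibroma library lay within the GEM-PNST range. The rise of 1.64 (SE 0.33, adjusted p = 0.0217) was 1.62 (adjusted p = 0.0733) without subgroup 1 library 1 and 1.56 (adjusted p = 0.0692) without subgroup 1 library 2. Against neurofibroma Isg20 rose by 1.32 (SE 0.4, adjusted p = 0.00662) in GEM-PNST. Ifit2, which binds viral RNA and limits its translation (chromosome 19, 34550694 to 34576419), had 39.1, 63.5 and 84.9 CPM in neurofibroma, 46.4, 54.5, 25 and 27.8 CPM in paraspinal and 1.22, 9.93, 33.6 and 19.3 CPM in GEM-PNST libraries. Every GEM-PNST library lay below every neurofibroma library, and the subgroup 2 libraries did too. The fall was 1.98 (SE 0.52, adjusted p = 0.00287) in GEM-PNST and 0.71 (SE 0.23, adjusted p = 0.0149) in paraspinal libraries, and the latter was not called without either subgroup 2 library (adjusted p = 0.0701 and 0.0802). Rsad2, or viperin, which makes a nucleotide that stops viral polymerases (chromosome 12, 26442746 to 26456452), had 14, 25.9 and 55.4 CPM in neurofibroma, 17.3, 9.11, 6.36 and 8.96 CPM in paraspinal and 0.541, 1.83, 8.78 and 20.5 CPM in GEM-PNST libraries. It fell by 1.46 (SE 0.38, adjusted p = 0.00331) in paraspinal and by 1.87 (SE 0.67, adjusted p = 0.0194) in GEM-PNST libraries against neurofibroma. The paraspinal call was lost with subgroup 1 alone. The GEM-PNST call was lost without library 2 (adjusted p = 0.0563) and without libraries 1 and 3 (adjusted p = 0.0943). GEM-PNST library 4 and subgroup 1 library 1 lay within the neurofibroma range and the other 6 libraries below it.

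Ifit1, another RNA-binding protein of this family, had 18.2, 51.3 and 89.9 CPM in neurofibroma, 38.4, 16.8, 9.13 and 27.1 CPM in paraspinal and 0.203, 11.8, 38.6 and 22.3 CPM in GEM-PNST libraries. Its fall of 1.15 (SE 0.47, adjusted p = 0.0439) in paraspinal libraries had the highest adjusted p of the calls in that comparison and was lost without neurofibroma library 4 (adjusted p = 0.0561), without subgroup 1 library 2 (adjusted p = 0.126) and without subgroup 2 libraries 1 or 2 (adjusted p = 0.144 and 0.0752). In GEM-PNST against neurofibroma Ifit1 did not pass (adjusted p = 0.0812), but it fell by 2.18 (adjusted p = 0.0318) without GEM-PNST library 3 and by 1.58 (adjusted p = 0.04) without libraries 1 and 3, and DESeq2 called it (adjusted p = 0.0173). Isg15, the ubiquitin-like protein that is attached to other proteins, had 5.58, 16.2 and 34.5 CPM in neurofibroma, 26.2, 16.9, 25.8 and 37.8 CPM in paraspinal and 2.03, 18.9, 42.2 and 21.1 CPM in GEM-PNST libraries. Ifit3, which stabilizes Ifit1 complexes, had 8.16, 30 and 68.6 CPM in neurofibroma, 77.5, 61.4, 38.3 and 81.7 CPM in paraspinal and 0.338, 26.5, 92.5 and 35.5 CPM in GEM-PNST libraries. Neither passed in a stage comparison, and both were lowest of all 20 libraries in GEM-PNST library 1. Ifit3 has a near-identical copy, Ifit3b (97.8% identity over 97.4% of the transcript), whose reads may be counted with it or lost, so its level is uncertain. Isg15 and Ifitm3 also share part of their transcripts with another gene (63.8% at 95.2% identity and 52.1% at 91.6% identity).

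Of 7 MX and OAS enzymes, Oas3 fell against neurofibroma in both later stages and Mx1 rose in GEM-PNST. Oas3, an oligoadenylate synthetase that activates RNA decay (chromosome 5, 120753098 to 120777661), had 8.15, 16.9 and 36.7 CPM in neurofibroma, 8.96, 1.24, 1.07 and 4.33 CPM in paraspinal and 1.01, 1.08, 13.6 and 10.5 CPM in GEM-PNST libraries. GEM-PNST libraries 1 and 2 and 3 of the 4 paraspinal libraries lay below all neurofibroma libraries. Oas3 fell by 2.23 (SE 0.54, adjusted p = 0.00195) in paraspinal and by 1.49 (SE 0.62, adjusted p = 0.039) in GEM-PNST libraries, and the latter call was lost without GEM-PNST library 1 (adjusted p = 0.0902) or 2 (adjusted p = 0.0969). Mx1, a gene of the dynamin-like GTPase family (chromosome 16, 97447035 to 97462907), had 1.21, 6.31 and 20.5 CPM in neurofibroma, 16.4, 3.18, 3.49 and 6.45 CPM in paraspinal and 111, 3.83, 36.5 and 17.2 CPM in GEM-PNST libraries. Library 1 held the highest value of the 20, and without it the rise of 2.18 against neurofibroma (SE 0.75, adjusted p = 0.0157) was 1.04 (adjusted p = 0.253). Without libraries 1 and 3 it was 0.18 (adjusted p = 0.877). Part of the Mx1 transcript (27.2%) matches Mx2 at 94.8% identity, so reads of the pair may have been split. Oasl2 and Oasl1, synthetase-like proteins, held the highest and lowest mean per kilobase of these 7 genes in neurofibroma (14 and 0.836 CPM per kilobase). Oasl2 had 34.1, 98 and 147 CPM in neurofibroma, 96.9, 46.5, 63.8 and 72.7 CPM in paraspinal and 3.18, 39, 119 and 54.2 CPM in GEM-PNST libraries. Oasl1 had 0.226, 1.88 and 4.71 CPM in neurofibroma, 5.32, 2.74, 2.33 and 4.12 CPM in paraspinal and 2.16, 3.94, 10.4 and 7.27 CPM in GEM-PNST libraries. Neither passed, nor did Mx2, Oas1a and Oas2. Oas2 ranged from 0.203 CPM in GEM-PNST library 1 to 119 CPM in neurofibroma, and Oas1a matches Oas1g at 97.4% identity and is uncertain.

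Of 5 sensors, Ifih1 and Trim25 fell against neurofibroma in both later stages and Dhx58 rose in GEM-PNST. Ifih1, or MDA5, which detects long double-stranded RNA (chromosome 2, 62595798 to 62646255), had 12, 52.9 and 107 CPM in neurofibroma, 31.2, 19.3, 13.9 and 18.4 CPM in paraspinal and 8.45, 6.53, 25.9 and 20.5 CPM in GEM-PNST libraries. Libraries 1 and 2 of GEM-PNST lay below every neurofibroma library, and all others overlapped them. It fell by 1.26 (SE 0.47, adjusted p = 0.0278) in paraspinal and by 1.71 (SE 0.54, adjusted p = 0.00977) in GEM-PNST libraries. The paraspinal call was lost without subgroup 1 library 2 (adjusted p = 0.0719) and without subgroup 2 libraries 1 or 2 (adjusted p = 0.0895 and 0.0798). Trim25, a ubiquitin ligase that helps activate RIG-I (chromosome 11, 88999376 to 89020293), had 56.7, 77.9 and 114 CPM in neurofibroma, 70.5, 39.1, 28.3 and 40.8 CPM in paraspinal and 77.3, 41.4, 47.2 and 51.7 CPM in GEM-PNST libraries. Subgroup 1 library 1 and GEM-PNST library 1 were near the neurofibroma median and the other 6 lay below the neurofibroma range. Trim25 fell by 0.9 (SE 0.25, adjusted p = 0.00497) and by 0.63 (SE 0.23, adjusted p = 0.0219), and the latter call was lost without GEM-PNST libraries 2, 3 or 4 (adjusted p = 0.08, 0.0627 and 0.0614). The former call was lost with subgroup 1 alone. Dhx58, or LGP2, a relative of these sensors without a signaling domain (chromosome 11, 100694884 to 100704271), had 2.22, 7.04 and 14.4 CPM in neurofibroma, 14.5, 9.72, 9.76 and 12.9 CPM in paraspinal and 32.9, 18.6, 25.7 and 15.8 CPM in GEM-PNST libraries. Each GEM-PNST library lay above all libraries of both other stages. The rise of 1.68 against neurofibroma passed (SE 0.37, adjusted p = 0.000746), and the difference of 0.9 from paraspinal libraries did not (SE 0.33, adjusted p = 0.103). RIG-I (Ddx58) and the Z-nucleic acid sensor Zbp1 passed in no stage comparison, and Zbp1 ran from 1.62 CPM in GEM-PNST library 1 to 90 CPM in library 3.

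Of 7 GBP and IRG GTPases, which interferon gamma induces and which attack vacuoles that hold microbes, Gbp7 fell and Irgm1 rose. Gbp7 (chromosome 3, 142530342 to 142550149) had 39.1, 75.9 and 126 CPM in neurofibroma, 41.9, 37, 4.42 and 10.7 CPM in paraspinal and 0.406, 1.4, 17.8 and 15.7 CPM in GEM-PNST libraries. All GEM-PNST libraries lay below all neurofibroma libraries, and subgroup 1 library 1 was the only paraspinal library within the neurofibroma range. Gbp7 fell by 1.74 (SE 0.48, adjusted p = 0.00467) in paraspinal and by 3.16 (SE 0.73, adjusted p = 0.00105) in GEM-PNST libraries. Its paraspinal call was lost with subgroup 1 alone. Irgm1, a regulator of this family (chromosome 11, 48861968 to 48871683), had 4.98, 21.4 and 33.2 CPM in neurofibroma, 38.9, 21.3, 25 and 28.6 CPM in paraspinal and 19.4, 34.5, 97.9 and 54.2 CPM in GEM-PNST libraries. Its rise of 1.31 in GEM-PNST against neurofibroma (SE 0.43, adjusted p = 0.0113) was 0.79 (adjusted p = 0.129) without library 3 and 1.1 (adjusted p = 0.0619) without libraries 1 and 3. Gbp2 had 11.1, 43.9 and 91.1 CPM in neurofibroma, 57.1, 46.9, 39.6 and 51.8 CPM in paraspinal and 2.37, 22.7, 148 and 65.3 CPM in GEM-PNST libraries. Gbp5 had 2.4, 10.4 and 19 CPM in neurofibroma, 18.2, 15, 2.23 and 4.81 CPM in paraspinal and 0.338, 1.08, 10.3 and 4.44 CPM in GEM-PNST libraries. These genes held the highest and lowest mean of the 7 per kilobase of exon in GEM-PNST (23.7 and 0.607 CPM per kilobase), and neither passed in a stage comparison with all libraries. The log2 fold change of Gbp5 in GEM-PNST against neurofibroma was -1.35 (adjusted p = 0.0749), and the gene fell by 2.42 (adjusted p = 0.00581) without library 3 and by 1.91 (adjusted p = 0.0225) without libraries 1 and 3. It was also called lower with RLE scaling (adjusted p = 0.0437) and by DESeq2 (adjusted p = 0.0131). Gbp3, Igtp and Iigp1 passed none either, and Iigp1 went from 0.27 CPM in GEM-PNST library 1 to 87.5 CPM in library 3.

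Library by library, GEM-PNST did not share a single level of the interferon response. In library 1, 17 members (45.9%) lay under 10% of the mean of the other 3 libraries, beside 19.6% of all genes tested, and the median member stood at 15.4% of that mean, beside 85.8% for genes in general. Ifit1, Ifit2, Ifit3, Rsad2, Oas2, Gbp3, Gbp5, Gbp7, Iigp1 and Ifi44 were among these, with 0 to 18 counts each. The same library was nonetheless the highest of the 4 for Mx1, Dhx58, Ifi35 and Trim25. In library 3, 24 members (64.9%) exceeded 200% of the mean of the others, beside 15% of genes, and 28 lay above all 4 paraspinal libraries, beside 31.6% of genes. Library 1 lay below all paraspinal libraries in 24 members, beside 41.6% of genes, library 2 in 16, beside 36.6% of genes, library 4 in 5, beside 33.6% of genes, and library 3 in 0, beside 32% of genes. T and NK cell markers summed to 369 CPM in library 3 and 5.07 CPM in library 2, and macrophage markers to 6940 CPM in library 1, where the members were low. This macrophage list was mixed in library 1, and Lyz2 alone held 3790 CPM. Lyz2, Cd68, Aif1 and Ptprc were highest of the 4 there, while C1qa, C1qb, Mrc1, Cd163 and Fcgr1 were lowest. A link of these markers with the members was not tested. Without library 1, Oasl1, Ifitm3 and Zbp1 were called higher than in neurofibroma (adjusted p = 0.0315, 0.0479 and 0.0146), and Ifitm3 was also called without library 4 (adjusted p = 0.0467).

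**Figure D4:**
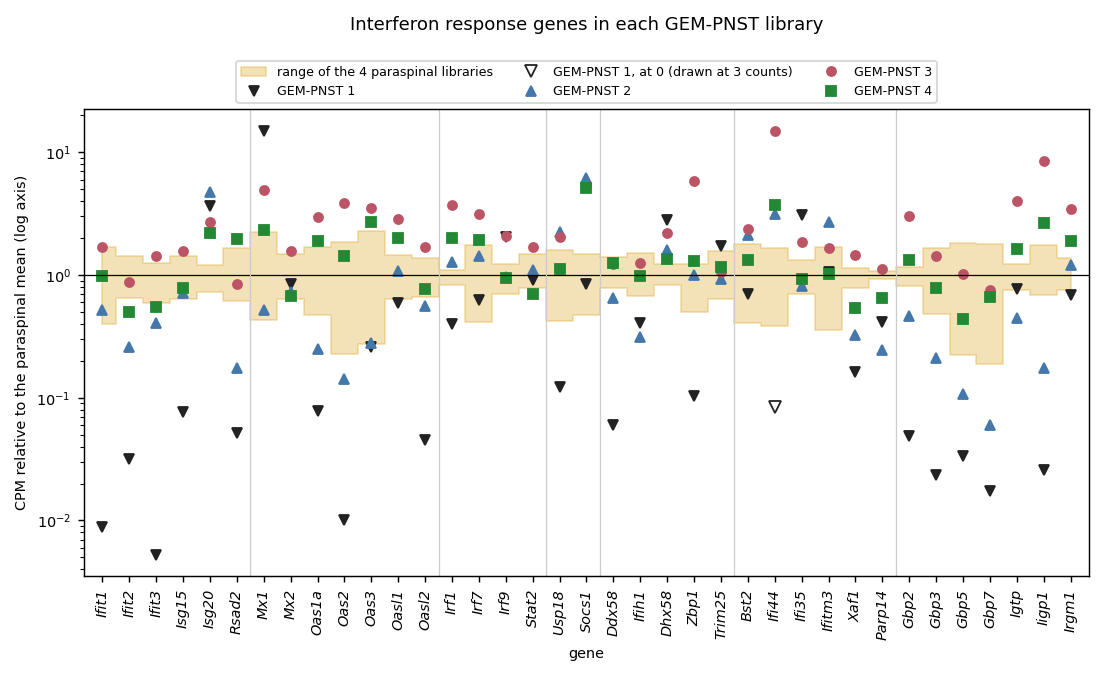
CPM of each member in each GEM-PNST library divided by the mean of the 4 paraspinal libraries, on a log axis, with the range of the paraspinal libraries shaded. Library 1 lies below the shaded range in 24 of 37 genes and library 3 above it in 28, whereas all 4 libraries lie above it for Isg20 and Dhx58.

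The genes upstream of the members did not follow a single direction. Of 14 interferon genes looked up, 13 did not pass the expression filter. Ifnk, an interferon of keratinocytes, ranged from 0.657 to 3.84 CPM in neurofibroma, from 0 to 0.0485 CPM in paraspinal libraries, under the floor, and was at 0 in all GEM-PNST libraries; it was lower than in neurofibroma in both (adjusted p = 2.98e-06 and 2.03e-06). The interferon gamma gene Ifng reached 0.135, 0, 1.79 and 0.0807 CPM across GEM-PNST libraries 1 to 4, above the floor of 3 counts only in library 3. Of 15 receptor and signaling genes, 5 rose and 3 fell in paraspinal and 9 rose and 2 fell in GEM-PNST against neurofibroma. Of all genes tested, 59.4% and 73.1% were called in these comparisons. None of the 15 passed between GEM-PNST and paraspinal libraries, beside 10.2% of genes. Irf8 and Irf5, transcription factors of myeloid cells, rose by 5.53 (adjusted p = 1.83e-05) and 4.61 (adjusted p = 8.87e-06) in GEM-PNST, where library 1 held the highest values of both, and Il10rb, a chain of the type III receptor, rose by 1.83 (adjusted p = 1.07e-07) in paraspinal libraries. Ifnar1, a chain of the type I receptor, fell by 1.3 (adjusted p = 5.98e-08) and by 0.72 (adjusted p = 0.00261), and Ifngr1, a chain of the type II receptor, rose by 2.36 (adjusted p = 3.62e-05) in GEM-PNST. Across GEM-PNST libraries 1 to 4 Ifngr1 had 887, 103, 240 and 270 CPM, so library 1 was the highest of the 4 in this receptor and the lowest in most members. Of 16 nucleic acid sensing genes, 5 rose and 3 fell in paraspinal libraries against neurofibroma, beside 59.4% of genes. In GEM-PNST against neurofibroma 9 rose and 1 fell, beside 73.1% of genes. Trex1, a DNA exonuclease that limits DNA sensing, rose by 1.77 (adjusted p = 0.0332) from paraspinal to GEM-PNST, and Samhd1, which degrades nucleotides, by 1.26 (adjusted p = 0.0481).

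Other interferon-induced genes outside the 37 also went both ways. Of 40 tested, 5 rose and 13 fell in paraspinal, and 8 rose and 7 fell in GEM-PNST against neurofibroma libraries. The shares of all genes called in these comparisons were 59.4% and 73.1%. The kinase Eif2ak2, or PKR, fell by 1.71 (adjusted p = 8.53e-07) and by 1.77 (adjusted p = 1.04e-06), and Herc6, the mouse ligase for Isg15, by 1.9 (adjusted p = 0.00055) and by 2.05 (adjusted p = 0.000847). The immunoproteasome subunits Psmb8 and Psmb9 rose by 4.68 (adjusted p = 2.49e-06) and 3.81 (adjusted p = 0.000199) and the peptide transporter Tap1 by 3.74 (adjusted p = 7.79e-05) in GEM-PNST against neurofibroma. Psmb8 reached 1930 CPM in GEM-PNST library 1 and 58.8, 346 and 124 CPM in libraries 2 to 4. Psmb9 was at 1010, 6.1, 149 and 38.7 CPM in the same order, and library 2 lay below the lowest neurofibroma library (6.35 CPM). Between GEM-PNST and paraspinal libraries 2 of the 40 passed, beside 10.2% of genes. Both were higher, Ly6e by 3.14 (adjusted p = 0.026) and Gbp8 by 3.33 (adjusted p = 0.0406).

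Within neurofibroma the members were mostly higher in the first run. By mean log2 CPM 35 of 37 members (94.6%) were higher in libraries 1 to 6 than in libraries 7 to 12, beside 45.9% of all genes, with a median difference of 1.05 over the members and -0.03 over all genes. The groups did not overlap for 2 members, Bst2 (10.6 to 33.6 against 2.92 to 10.5 CPM) and Gbp3 (36.1 to 83.9 against 4.63 to 33.8 CPM), beside 0.983% of genes. Library 3 held the highest value of 21 members and library 11 the lowest of 26. The mean log2 CPM of the members was 4.04 to 5.33 in the first run and 2.82 to 4.98 in the second, where library 9 held the 4.98. Macrophage markers summed to 658 to 2070 CPM in the first run and 143 to 1360 CPM in the second, with 1980 CPM in library 3 and 143 CPM in library 11. The medians of the fibroblast markers were 7500 and 3580 CPM and those of the dendritic cell markers 418 and 210 CPM in the first and second run. Of the dendritic sum, Tcf4 alone gave 323 of 473 CPM in library 3 and 50.5 of 82.2 CPM in library 11. Other lists had the lower median in the first run: Schwann cell (8100 and 12000 CPM), sensory neuron (3420 and 3820 CPM) and T and NK cell markers (17 and 23.6 CPM). The part of these cells in the difference between runs was not tested.

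The run chosen as reference moved several calls. Against the first run alone, 18 members passed in paraspinal libraries, 5 higher and 13 lower, beside 56.6% of genes. Against the second run alone 12 passed, 9 higher and 3 lower, beside 52.6% of genes. For GEM-PNST the counts were 13 (8 higher and 5 lower, beside 65.1% of genes) and 14 (12 higher and 2 lower, beside 64.5% of genes). Socs1, Bst2, Irf7 and Ifi35 rose and Ifit2 and Gbp7 fell in GEM-PNST against each run, with Socs1 at 5.69 and 5.94, Bst2 at 2.8 and 4.27, and Gbp7 falling by 3.48 and 2.75. The GEM-PNST calls of Rsad2 (adjusted p = 0.0744 and 0.0723) and Oas3 (adjusted p = 0.0632 and 0.185) were lost against each run taken alone. Those of Mx1 and Irgm1 were lost against the first run (adjusted p = 0.0698 and 0.0601), and those of Ifih1, Isg20, Parp14 and Trim25 against the second run (adjusted p = 0.132, 0.0858, 0.353 and 0.258). Oasl1, Ifitm3 and Zbp1 were called higher in GEM-PNST against the second run (adjusted p = 0.0392, 0.0194 and 0.0438). In paraspinal libraries the falls of Ifit1, Ifit2, Ifih1, Gbp7 and Trim25 were not called against the second run (adjusted p = 0.34, 0.124, 0.287, 0.0538 and 0.0683), and Ifit3, Isg15, Irf9 and Dhx58 were called higher (adjusted p = 0.025, 0.0161, 0.0224 and 0.00742).

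With 2 libraries in each and a fit that shared its spread with GEM-PNST libraries, the comparison of the paraspinal subgroups could show little. Between subgroup 2 and subgroup 1 edgeR called 0 members and 0 genes, beside a share of 0% of all genes, and 1 member, Ifitm3, had an unadjusted p under 0.05, beside 2100 genes. DESeq2 called 0 members and 7.31% of genes. Subgroup 1 library 1 was the highest paraspinal library in 25 members, while subgroup 1 library 2 was the lowest in 19 and subgroup 2 library 1 in 18, so the libraries of a subgroup differed among themselves. Both subgroup 2 libraries lay above both subgroup 1 libraries in 7 members (Isg20, Irf9, Bst2, Ifi35, Ifitm3, Zbp1 and Socs1) and below them in 8 (Ifit2, Rsad2, Mx2, Ddx58, Ifih1, Gbp3, Gbp5 and Gbp7), beside 69.6% of genes that did not overlap in either direction. Between GEM-PNST and paraspinal libraries DESeq2 called 4 members, beside 28.4% of genes: Isg20, Socs1 (adjusted p = 0.00787), Dhx58 (adjusted p = 0.0292) and Mx1 (adjusted p = 0.0381).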

How the data were processed

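Total RNA of 20 tumors was sequenced from Nextera XT libraries, per the labels' protocols. The deposited table holds raw read counts per gene for each library, and TopHat, HISAT2, featureCounts and the mm10 build are named, without roles, in the submitters' processing notes; the annotation used is not given in the sources used here. All 20 deposited columns were tested to hold whole numbers of 0 or more, also the 10 whose headers are digits only. Libraries were grouped by the labels.

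Genes were kept by edgeR's filterByExpr over the 3 stages, and each comparison was fitted on all 16589 genes with TMM factors and the robust quasi-likelihood test of edgeR 4.0.16 (R 4.3.3), with Benjamini-Hochberg adjustment and a threshold of 0.05. The subgroup comparison shared its spread with the GEM-PNST libraries. The fit was tested on simulated data. Mean log2 CPM used a prior count of 2. Floors cover counting error only, while the SEs come from the quasi-likelihood fit, which includes the variation among libraries. The tested genes held 95.78% to 99.97% of a library's counts. Alternatives were RLE factors, other filters, DESeq2 1.42.0, all libraries in 1 fit, single runs or subgroups, a replicate block and leaving out libraries. Positions, exon lengths and overlaps came from GENCODE on GRCm38, similarity from blastn 2.17.0+, and promoter windows from RefSeq.

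Values per library were given for members that passed in several comparisons or were highest or lowest per kilobase in their role, and some others (Ifit1, Ifi44, Mx1, Irgm1) were added after their values were seen. Genes of other lists were named from the 4 with the largest called fold change of their list in a comparison; not all of these are printed. The 37 members and all lists were chosen with earlier results of these data known.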

Additional observations from a re-analysis of the deposited data

Results flagged for a closer look

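Among 74 sets of 4 libraries (each member in paraspinal tumor and in GEM-PNST), 2 held a library that stood far from the other 3 by Dixon's criterion, which chance meets in about 1 of 20 sets. Zbp1 was at 7.82 CPM in paraspinal subgroup 1 library 2, beside 17.4, 18 and 19 CPM in the other paraspinal libraries. Socs1 was at 4.19 CPM in GEM-PNST library 1, beside 30.5, 26.1 and 25 CPM in the other GEM-PNST libraries.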

How the results depend on the processing

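No called member changed direction under any alternative run. Irf1 and Socs1 were called under every alternative in paraspinal against neurofibroma libraries, and Bst2, Gbp7, Ifi35, Ifit2, Irf7 and Socs1 in GEM-PNST against neurofibroma. With libraries left out in turn, 10 to 13 members were called in paraspinal against neurofibroma (beside 52.8% to 60.3% of genes), 0 to 2 in GEM-PNST against paraspinal (3.06% to 13.9% of genes) and 13 to 18 in GEM-PNST against neurofibroma (71.2% to 73.1% of genes); of the neurofibroma libraries, library 4 alone was left out. With subgroup 1 alone, 6 members (16.2%) were called against neurofibroma, 5 higher and 1 lower, beside 44.7% of genes. The falls of Ifit1, Ifit2, Rsad2, Ifih1, Ifi44, Gbp7 and Trim25 were then not called, while that of Oas3 was. With subgroup 2 alone, 13 members were called, 5 higher and 8 lower, beside 60.1% of genes. Between GEM-PNST and paraspinal libraries 4 were called by DESeq2, 2 with all 20 libraries in 1 fit, 0 with subgroup 2 alone and 2 without GEM-PNST libraries 1 and 3, a pair left out after seeing that they were the lowest and highest in most members. Over all genes that comparison called 1686, beside 4711 by DESeq2, 7060 with all libraries in 1 fit, 61 with subgroup 2 alone and 507 to 2304 with a library left out. Between the subgroups 0 genes were called, beside 1212 by DESeq2 and 1231 with all libraries in 1 fit. The cause of these differences was not tested.

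Replicate numbers did not pair the libraries: the correlations of same-numbered libraries' deviations ranged from -0.29 to 0.22. With the replicate block 2 members were called in paraspinal against neurofibroma (2762 genes, beside 9858 without it), 9 in GEM-PNST against neurofibroma (7204 genes, beside 12120) and 1 in GEM-PNST against paraspinal (840 genes), there Xaf1, which fell by 2.25 (edgeR adjusted p = 0.0481), in place of Isg20.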
